A study of Mus musculus with 8 samples.

Results

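The transcripts described here are those present above background in mouse bone marrow-derived macrophages from 4 culture wells given rat IAPP. A probe was a member if its detection p, which places its signal among the negative control beads of the same array, was under 0.05 on all 4 arrays. This held for 10239 of 25697 probes, or 39.8%, and the members were then ranked by mean log2 signal over the 4 arrays after background correction and quantile normalisation. After probes were assigned to genes, 7071 of 16593 named genes had a member probe, or 42.6%, 2073 were detected on 1 to 3 arrays and 7449 on none. Members were thus chosen by detection p and ordered by signal on these 4 arrays, so their levels are a description and were not tested.

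The wells held macrophages of strain C57BL/6, grown for 7 days in DMEM with 10% serum and 15% L929-conditioned medium, which supplies the growth factor that macrophages need, and kept without that medium for 12 h before the peptide. Rat IAPP, the rat form of the islet hormone amylin, was given at 15 uM for 12 h; 1 protocol label gives this dose with the unit mM, while the titles and the design text give uM. The series also holds 4 wells given human IAPP, for which rat IAPP, a form that aggregates poorly, was the control. No untreated well is labelled, so the levels are those of macrophages in the presence of rat IAPP, and what the peptide itself did cannot be told apart from the resting state. The wells are labelled as separate replicates and not as separate animals, so the spread below is that between wells.

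Macrophages are phagocytes that take up particles and dying cells and break them down in lysosomes, which are acidified by a proton pump and filled with cathepsins and other hydrolases. They sense microbes and damaged tissue through Fc receptors, Toll-like receptors and other pattern receptors, and answer with cytokines and chemokines. Those grown in macrophage growth factor are adherent, rich in actin-regulating proteins and largely leave the cell cycle when the factor is withdrawn.

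Mean raw signals of arrays 1, 2, 3 and 4 were 1538, 1523, 1967 and 1180 units, and 46.6, 45.5, 47.6 and 42.7% of probes were detected on them. Probes detected on no array had median raw signals of 306, 334.1, 347.4 and 311.9 units, so the background was alike while array 4 was the dimmest and detected the fewest probes. Array 4 also stood apart in its values, as described below. The members had mean log2 signals between 6.24 and 16.05, with a median of 9.77, a lower quartile of 8.26 and an upper quartile of 11.39. The 12212 probes detected on no array had means between 4.56 and 6.05. The same threshold on the 4 human IAPP arrays took 10021 probes. Of these lists 9564 probes were shared, which is 93.4% of the rat IAPP list and 95.4% of the human IAPP list.

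**Figure D1:**
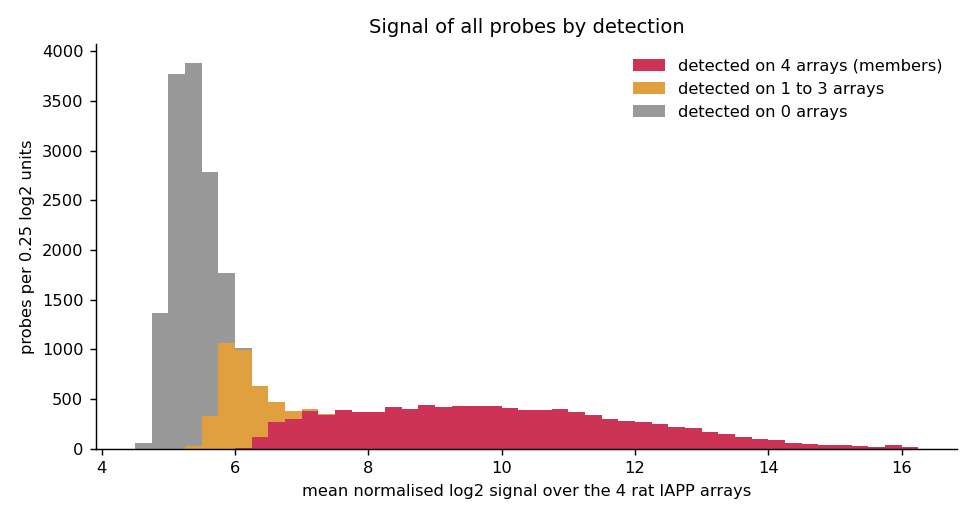
Number of probes (vertical axis) by mean normalised log2 signal over the 4 rat IAPP arrays (horizontal axis, bins of 0.25 log2 units), stacked by the number of arrays with a detection p under 0.05. Probes detected on no array form a narrow peak below 6.05, and the 10239 members spread from 6.24 to 16.05.

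All signals below are normalised log2 values on arrays 1, 2, 3 and 4 in that order. The signal of a bead array probe also depends on its sequence, so a rank orders probe signals and not amounts of transcript. Percentiles run from 100 for the brightest of the 7071 member genes to near 0 for the dimmest, and a gene was represented by its brightest member probe. Near the top, signals crowded at the upper end of the scale, where the order may not reflect level. Each of the 25 brightest probes had a raw signal of at least 60000 units, a cut set here, on at least 1 array, as did 61 of the 100 brightest. The highest raw signals on arrays 1, 2, 3 and 4 were 69108.1, 68914.6, 69743.7 and 68991.8 units. Saturation was not tested. Of the 100 brightest probes 15 had no gene name in the platform annotation and are not described.

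The brightest genes included ribosomal genes, macrophage markers and lysosomal genes. Psap, the precursor of the saposins that help lysosomal enzymes break down glycolipids, was first with signals of 16.06, 16.06, 16.04 and 16.03. Itm2b, a transmembrane protein, followed with 16.07, 16.07, 15.94 and 16.07. Laptm5, a lysosomal membrane protein of blood cells, had 16.01, 16.06, 16.05 and 16.04, and Fcer1g, the signalling chain shared by Fc receptors, had 16.05, 16.03, 16.04 and 16.02. All 4 genes were at the ceiling on every array, so their small differences are not differences in level. The next places held the ribosomal genes Rplp1 and Rpl41, the cathepsin inhibitor Cstb and the lysozymes Lyz2 and Lyz1. After them came the ribosomal gene Rpl37, the class I light chain B2m and the ribosomal gene Rps20. Lyz1 held its place through 1 probe, and its other probes had means of 9.76 and 6.86. Those of Lyz2 had 15.71 and 10.18. Gpnmb, a transmembrane glycoprotein of macrophages, the iron store subunit Fth1 and the lysosomal protease Ctsb also fell within the first 20, with Ctsb at 15.99, 16, 15.93 and 15.97.

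Of the 100 brightest genes, 68 belonged to at least 1 of the gene lists and 32 to none. The largest group was cytosolic ribosomal proteins, with 26 of the 100, followed by macrophage identity markers with 10, lysosomal enzymes and membrane proteins with 7, iron storage and antioxidant genes with 6, and glycolysis and cytoskeleton genes with 4 each. Some genes stand in more than 1 list. Among the first 30 outside the lists were Clec4d, a C-type lectin receptor of myeloid cells, Ifitm3, an interferon-inducible membrane protein, and Akr1a1, an aldehyde reductase. When probes rather than genes were ranked on each array alone, 97, 96, 95 and 95 of the 100 brightest probes were again among the first 100.

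**Figure D2:**
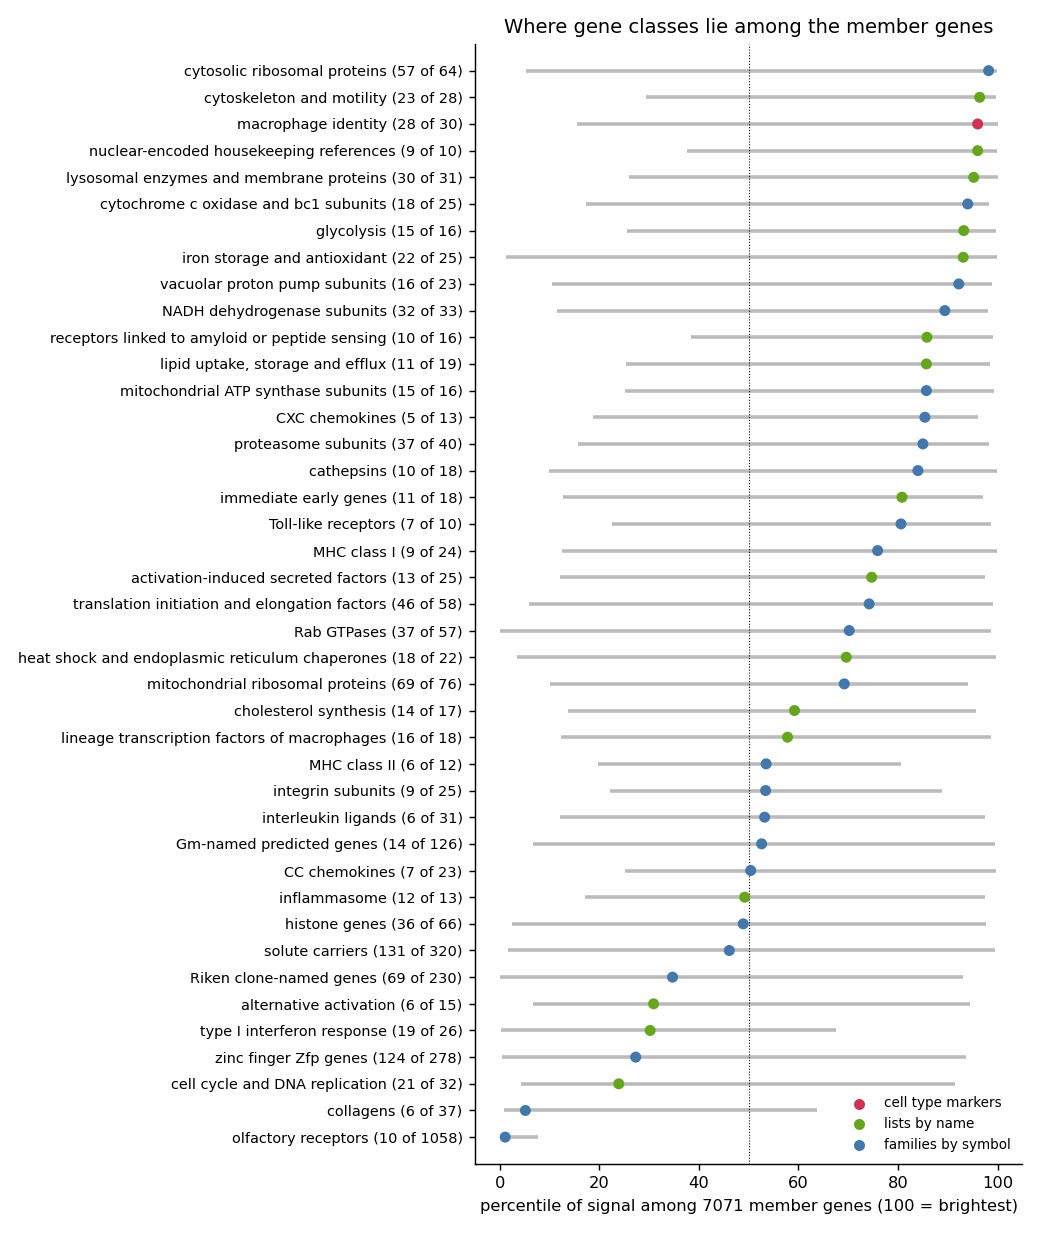
Position of gene classes among the member genes: the horizontal axis is the percentile of signal (100 is brightest), each point the median of a class and each grey line its lowest to highest member. Numbers in brackets are member genes of genes on the array, and classes with at least 5 members are shown. Ribosomal, cytoskeleton, macrophage and lysosomal genes have medians above the 95th percentile, and olfactory receptors the lowest median, 1.08.

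Markers of macrophages were checked first. Of 35 listed markers 30 were on the array by name and 28 were members, or 93.3% against 42.6% of all genes, with a median at the 96.0th percentile. Adgre1, which codes for the macrophage surface protein F4/80, had 14.82, 14.85, 14.67 and 14.95. Cd14, the coreceptor for bacterial lipopolysaccharide, had 15.29, 15.34, 15.32 and 15.42, and Tyrobp, the adaptor of Trem2, had 14.16, 14.37, 14.05 and 14.28. The complement genes C1qb and C1qc lay at the 98.9th and 98.2nd percentiles. Other markers were in the middle of the range: Mertk, a receptor for dying cells, at the 65.1st, Itgam, an integrin of myeloid cells, at the 55.8th, and Fcgr1, the high-affinity IgG receptor, at the 48.7th, with 10.08, 10.08, 10.05 and 9.8. The scavenger receptors Cd36 and Msr1 were detected on no array, with means near the background of the arrays: Msr1 had 5.06, 5.14, 4.99 and 5.42. The labelled cell type thus had nearly all its markers, although some listed markers, Csf1r and Cd68 among them, were not analysed here.

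**Figure D3:**
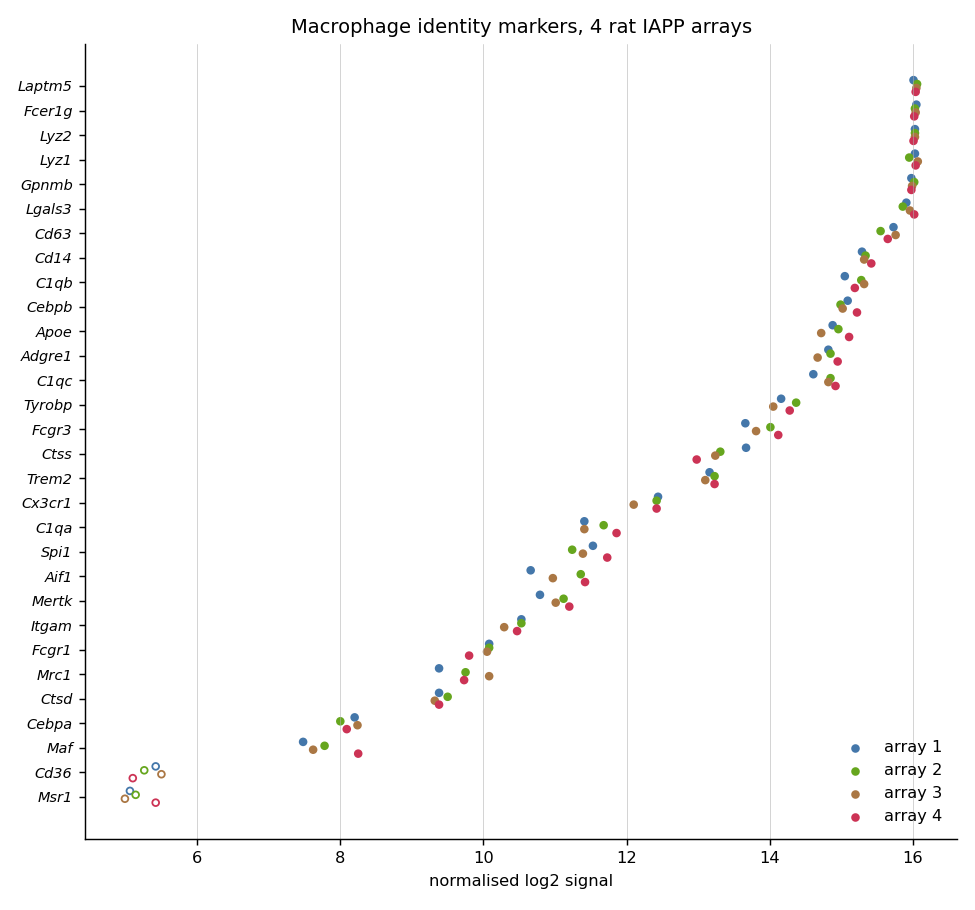
Normalised log2 signal (horizontal axis) of 30 macrophage identity markers (rows) on the 4 rat IAPP arrays, 1 point per array, filled where the detection p was under 0.05 and open where it was not. The markers run from Laptm5 near 16 to Maf below 9, and Cd36 and Msr1 are open on all 4 arrays.

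Markers of other cell types were mostly undetected. None of the 11 measured T cell genes was a member, nor any of 10 mast cell and basophil, 6 eosinophil, 7 erythroid, 10 liver, 10 muscle and 11 germ line genes. Of these, 3 T cell, 3 muscle, 3 germ line, 1 mast cell and 1 liver gene were detected on 1 to 3 arrays. B cell genes had 2 members of 9, the brighter being Blnk at the 39.3rd percentile, and NK cell genes 1 of 8, Prf1 at the 18.4th. Pancreas genes had 1 of 9, Cela1 at the 18.8th, adipocyte genes 1 of 7 and neuron genes 1 of 10. Of 13 neutrophil genes 3 were members: S100a8, part of the calprotectin dimer, with 11.34, 11.46, 11.34 and 11.23, the growth factor receptor gene Csf3r with 10.39, 10.44, 10.45 and 10.05, and the collagenase gene Mmp8. The granule genes Mpo, Ltf and Ngp were undetected on all 4 arrays, and so was S100a9, the partner of S100a8. From the same list Prtn3 was detected on 2 arrays, and Elane, Camp and Mmp9 on 1 each. The platelet factor Pf4 had 12.13, 12.15, 12.1 and 11.97, while Itga2b, Gp9 and Gp1bb of the same list were undetected and Ppbp was detected on 3 arrays. The dendritic cell genes Flt3, Zbtb46, Xcr1 and Itgax were undetected, and only Bst2 of that list of 11 was a member. Another 3 of that list were detected on 1 to 3 arrays. Among 8 endothelial genes Vwf, the clotting factor carrier, had 10.93, 10.89, 10.77 and 11.02 and Esam was a dim member, while Pecam1, Kdr, Tek and Tie1 were undetected. Osteoclasts, which arise from the same precursors, had 3 of 11 markers among the members: Nfatc1 with 11.51, 11.68, 11.69 and 11.67, Ctsk with 10.79, 10.6, 10.59 and 10.77, and Tnfrsf11a with 10.34, 10.2, 10.1 and 9.77. Their defining genes Acp5, Dcstamp, Ocstamp and Calcr were detected on no array. In a bulk sample a few cells of another type and a low level in all cells cannot be told apart.

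Genes of the lysosome stood near the top of the range. Of 31 measured lysosomal enzymes and membrane proteins 30 were members, with a median at the 95.2nd percentile, and the 16 member subunits of the vacuolar proton pump, which acidifies the lysosome, had a median at the 92.2nd. Lamp1, a main protein of the lysosomal membrane, had 15.21, 15.22, 15.3 and 15.34. Hexa, a subunit of the enzyme that breaks down gangliosides, had 14.67, 14.65, 14.63 and 14.66, with an SD of 0.016 over the 4 arrays. Grn, which codes for progranulin, and Man2b1, an alpha-mannosidase, lay at the 99.3rd and 99.1st percentiles. The phosphatase Acp5, also a marker of osteoclasts, was the lysosomal gene that was not detected. Cathepsins were split: 10 of 18 were members, with Ctsb at the 99.8th percentile and Ctsz at the 97.2nd, and 4 were detected on no array. Ctsd and Ctsl, which code for a pair of major lysosomal proteases, lay only at the 38.7th and 26th percentiles, each through a single probe.

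Genes for making protein and energy stood high as families. Of 64 genes for cytosolic ribosomal proteins 57 were members, 44 of them above the 90th percentile, with a median at the 98.2nd. The lowest, Rps15a, had 6.85, 6.98, 6.97 and 6.85 and lay at the 5.19th percentile. Mitochondrial ribosomal proteins were detected about as often, 69 of 76, but their median was at the 69.2nd percentile and none was among the first 100. Proteasome subunits had 37 of 40 members with a median at the 85.0th, and subunits of the mitochondrial NADH dehydrogenase 32 of 33 with a median at the 89.4th. Of 16 glycolysis genes 15 were members, with a median at the 93.2nd: Gapdh, Pkm, Ldha and Tpi1 all lay above the 99th percentile, while the probe for Pgk1, an enzyme of the same path, was detected on no array. Cytoskeleton and motility genes had 23 of 28 members and a median at the 96.4th, led by Actb and Tmsb4x, which codes for the actin-binding peptide thymosin beta.

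Genes of iron handling and defence against oxidants had 22 of 25 members and a median at the 93.1st percentile. Fth1, the heavy chain of ferritin, had 15.95, 15.99, 15.94 and 16.05, and Gpx1, a peroxidase, had 15.87, 15.97, 15.95 and 15.96. Slc40a1, the iron exporter, lay at the 97.5th percentile, and Slc11a1, a metal transporter of the phagosome, at the 99.4th. Hmox1, which breaks down haem, had 13.42, 13.23, 13.14 and 13.3. Of the metallothionein pair, Mt1 had 15.4, 15.4, 15.42 and 15.56, and Mt2 was detected on no array. Of 17 measured genes of cholesterol synthesis 14 were members, near the middle with a median at the 59.2nd percentile, from Hmgcs1 at the 95.7th to Pmvk at the 13.8th.

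Receptors and inflammatory genes were spread from the top to the undetected range. Of 10 Toll-like receptors 7 were members, with Tlr2, a receptor for bacterial lipoproteins, at 15.2, 15.04, 15.13 and 14.94, and Tlr4, the receptor for lipopolysaccharide, at 12.24, 12.1, 12.23 and 12.06. Fpr2, a receptor for formylated and amyloid peptides, lay at the 98.0th percentile. The interleukin gene Il1b stood at the 97.5th percentile with 14.62, 14.36, 14.42 and 14.47, while Il1a had 7.84, 7.6, 7.53 and 7.1 and lay at the 12.1st. Tnf, the other early inflammatory cytokine, had 11.86, 11.77, 11.55 and 11.63. Il1rn, the antagonist of the interleukin receptor, had 7.73, 7.87, 7.92 and 8.04 through its brightest probe, and its other probes were undetected. Il1b and Tnf were therefore above background on every array given rat IAPP.

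Of 25 measured secreted factors induced in activated macrophages 13 were members, or 52.0% against 42.6% of all genes, with a median at the 74.7th percentile, which became 62.3 without array 4. Besides Il1b and Tnf they included Saa3, an acute phase protein, at the 93.9th percentile, the vascular growth factor gene Vegfa at the 86.5th, the cytokine gene Osm at the 60.7th and Lcn2, an iron-scavenging protein, at the 24.3rd. Of the rest 4 were detected on 1 to 3 arrays and 8 on none. The genes for nitric oxide synthase Nos2, for cyclooxygenase Ptgs2, for the cytokines Il10, Csf2 and Csf3 and for the chemokine Ccl2, named here after its values were seen, were undetected on all 4 arrays. Il6 was detected on 3 arrays, with 6.67, 6.25, 6.34 and 5.94. Of 15 genes of alternative activation 6 were members, with Tgm2, a transglutaminase, at the 94.4th percentile and Arg1, arginase, at 7.81, 8.04, 8.01 and 7.93, while Retnla, Ccl17, Ccl22 and Ccl24 were undetected. Of 31 interleukin genes 6 were members, and of 18 type I and III interferon genes only Ifna6, at the 8.84th percentile. Chemokines of the CC family had 7 of 23 members, from Ccl9 at the 99.7th percentile to Ccl27a at the 25.2nd. Chemokines of the CXC family had 5 of 13, or 38.5%, with a median at the 85.4th, which became 52.8 without array 2.

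Inflammasome genes were nearly all present, 12 of 13, at a median at the 49.2nd percentile. Casp1, the protease that cuts the interleukin precursors, had 14.07, 14.1, 14.17 and 14, and Gsdmd, the pore protein, lay at the 84.5th percentile. Nlrp3, the sensor of that name, was low with 8.28, 8.05, 8.12 and 7.28, and its adaptor gene Pycard had 9.72, 9.63, 9.65 and 9.3. Both were lowest on array 4. The listed interferon-stimulated genes were in the lower part: 19 of 26 were members with a median at the 30.2nd percentile and none of the list was above the 67.6th, the place of Oasl2, while Ifit1, Mx1 and Isg20 were undetected. The list leaves out other interferon-inducible genes, of which Ifitm3 and Ifitm2, named after their values were seen, lay at the 99.7th and 99.4th percentiles.

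Genes for the peptide's own receptor system were dim or undetected. The amylin receptor consists of the calcitonin receptor, Calcr, with a partner of the Ramp family. All 3 probes of Calcr were undetected on every array, as were Ramp2 and the ligand gene Iapp, which had 4.86, 4.94, 4.88 and 4.89. Ramp1 was a member with 7.86, 8.41, 8.08 and 8.43, as was Ramp3 with 6.21, 6.43, 6.61 and 7.15, at the 20.7th and 2.29th percentiles. Calcrl, the receptor of related peptides, was detected on 3 arrays. Of 16 receptors and enzymes linked to amyloid or peptide sensing 10 were members with a median at the 85.8th percentile. Ide, the protease that degrades insulin and amylin, had 11.23, 11.03, 11.11 and 10.86, while Mme, which codes for neprilysin, and Ager were undetected.

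The middle of the ranking, between the 40th and 60th percentile, held 1414 genes and few whole classes. The genes at its centre were Tpcn2, an ion channel of lysosomes and endosomes, Icmt, a methyltransferase of prenylated proteins, Klhl9, Marchf7, Thoc5 and Letmd1. Tpcn2 had 10.01, 10.06, 9.97 and 10.27, and Icmt had 9.86, 10.15, 9.96 and 10.35. Transcription factors of the macrophage lineage had 16 of 18 members around the middle with a median at the 57.8th percentile, from Cebpb at the 98.7th to Tfec at the 12.2nd. Spi1, the lineage factor PU.1, had 11.53, 11.24, 11.39 and 11.73, and Irf8 had 11.67, 11.36, 11.4 and 11.49. Solute carriers were members in 131 of 320 cases, or 40.9%, close to the 42.6% of all genes, with a median at the 46.1st percentile. Histone genes, 36 of 66, had their median at the 48.9th.

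Dim members came from other classes. Zinc finger genes of the Zfp series were members in 124 of 278 cases, or 44.6%, with a median at the 27.3rd percentile and 17 genes in the lowest 10%. Cell cycle and DNA replication genes had 21 of 32 members with a median at the 23.9th. Cdkn1a, which codes for the cell cycle inhibitor p21, was the brightest of them with 13.24, 13.2, 13.29 and 13.2. Mcm2, a subunit of the replicative helicase, had 6.75, 6.82, 6.95 and 6.71, and Myc, a growth-promoting transcription factor, was undetected. Genes of mitosis were split. Cdc20, Birc5, Cdk1, Cdca8, Plk1 and Top2a were members, from Cdc20 at the 32.2nd percentile to Top2a at the 11th, while Ccna2, Ccnb2, Bub1 and Ube2c were undetected. The lowest member of all was Tmem100, with 6.13, 6.17, 6.08 and 6.58. Outside the rule, the brightest gene detected on 3 arrays was Borcs7, part of a complex that moves lysosomes, with 7.96, 7.35, 8.21 and 6.22. Its mean was above that of Tmem100, but the rule asks for detection on all 4 arrays.

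Families of sensory organs and specialised tissues were mostly undetected, and olfactory receptors alone made up 895 of the 7449 undetected genes. Of 1058 olfactory receptor genes 10 were members, or 0.945%, all in the lowest 10%, the brightest being Olfr802 with 7.1, 7.26, 6.74 and 7.39. Vomeronasal receptors had 1 member of 140. Taste receptors, beta-defensins, prolactin genes, cytochrome P450 genes of families 2 and 3, fibroblast growth factors and major urinary proteins had none, of 35, 41, 22, 41, 22 and 5 genes. Keratins had 1 of 47, Krt10, at the 43.6th percentile. Collagens had 6 of 37, led by Col18a1 at the 63.8th. Of 36 genes matched by symbol as GABA and glutamate receptor subunits the 1 member was Grina, which is named after a glutamate receptor but is not a channel subunit, at the 99.1st percentile. Of 67 potassium channel genes 3 were members, among them Kcnk6 and Kcnk13, channels that set the resting potential.

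Undetected did not always mean that a gene is specialised. Probes for Rhoa and Actg1, which code for a GTPase and an actin used in most cells, and for Canx, a chaperone of the endoplasmic reticulum, were detected on no array, and that for the ferritin light chain Ftl1 on 1 array only. Among 4777 genes with several probes, 1350 had only member probes, 1254 had no probe detected on any array, and 979 had both a member probe and a probe undetected on all 4. B2m shows the last case: 1 of its probes had 16.02, 15.98, 16.02 and 16, and another had 4.98, 5.39, 5.46 and 5.16. The gene calls therefore depend on which probe a gene has.

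By chromosome, 45.9% of genes other than olfactory and vomeronasal receptors were members. The X chromosome had 35.0%. With these receptors included, chromosome 2 had 37.9% and chromosome 7 had 35.6%, against 46.4% and 43.4% without them. On the Y chromosome 2 of 15 genes were members, Eif2s3y with 11.65, 11.51, 11.64 and 11.26 and Kdm5d with 9.1, 8.69, 9.04 and 8.29, and Xist was undetected through both its probes on every array.

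Promoter sequence was not used in choosing members. RefSeq promoters of assembly GRCm38.p6, from 250 bases before to 50 after the start of the first listed transcript, were matched for 5870 of the 7071 member genes and 13335 of all 16593. The CpG ratio, the observed over the expected number of CG pairs, was at least 0.6 in 75.7% of member promoters, 46.4% of those of partly detected genes, 31.5% of those of undetected genes and 52.8% of all. Without the olfactory and vomeronasal receptors it was 36.9% in the undetected range. Within the members the share was 64.6% in the first 100 genes, 78.0% in the middle and 65.0% in the lowest 10%. The first 100 were thus not the richest in CpG, and their genes were short, with a median span of 5.76 kb against 21.4 kb for all members. Members of a class share family history and function, so these shares are descriptions.

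Promoter type differed between classes, counted here over all genes of a list with a matched promoter, whether members or not. Of 55 ribosomal promoters 89.1% passed the CpG ratio, against 13% of 23 macrophage marker promoters and 37.9% of 29 lysosomal ones. Of 6 strings of letters counted, 3 were set against the classes: GAGGAA, the core of sites for PU.1, CACGTG, the palindrome bound by TFEB and related factors, and CCGGAAG, the core of sites for GABP and related Ets factors. These 3 were searched on both strands. GAGGAA and CCGGAAG share the letters GGAA but no match of 1 contains the other. GAGGAA stood in 52.2% of macrophage marker promoters, in 41.4% of lysosomal ones and in 38.9% of those of activation-induced factors, against 27.2% of all promoters. CACGTG stood in 27.6% of lysosomal promoters, in 23.5% of proton pump ones and in 5 of 25 cytoskeleton ones, against 8.45% of all. CCGGAAG stood in 38.2% of ribosomal promoters, in 31.4% of proteasome and in 28.0% of cytoskeleton ones, against 12.8% of all. Each string was thus above its share of all promoters in several classes. Among all member promoters the shares were 27.6% for GAGGAA, 10.9% for CACGTG and 20.9% for CCGGAAG. Other classes were below these, such as NADH dehydrogenase with GAGGAA in 13.3% and glycolysis with CCGGAAG in 0.0%. The other strings were TATAAA at its usual place before the start and on the strand of the gene, CCAAT and the cyclic AMP response element, the last pair on both strands, which stood in 1.04, 39.3 and 3.41% of member promoters, against 2.67, 38.8 and 2.46% of all. Such a match does not show that a factor binds. The brightest member of each class with the string in the 250 bases before the start is printed below, 5′ to 3′ on the strand of the gene, with matches in capitals, to show promoters of 3 classes at the top of the ranking. Laptm5 lies at chr4:130913066-130913315 on the plus strand, with 1 match, on the reverse strand, whose first base is at -38. Lamp1 lies at chr8:13158911-13159160 on the plus strand, with 4 matches at -61, -45, -28 and -15. Rpl41 lies at chr10:128549169-128549418 on the minus strand, with 1 match at -56.
Laptm5: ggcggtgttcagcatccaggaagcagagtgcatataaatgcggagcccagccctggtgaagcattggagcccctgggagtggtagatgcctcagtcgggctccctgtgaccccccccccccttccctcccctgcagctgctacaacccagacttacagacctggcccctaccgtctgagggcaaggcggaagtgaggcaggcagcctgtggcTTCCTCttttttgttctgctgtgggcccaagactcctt
Lamp1: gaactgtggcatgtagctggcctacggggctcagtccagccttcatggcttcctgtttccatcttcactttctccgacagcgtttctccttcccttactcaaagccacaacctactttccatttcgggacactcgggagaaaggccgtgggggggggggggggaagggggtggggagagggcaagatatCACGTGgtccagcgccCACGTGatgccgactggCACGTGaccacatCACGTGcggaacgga
Rpl41: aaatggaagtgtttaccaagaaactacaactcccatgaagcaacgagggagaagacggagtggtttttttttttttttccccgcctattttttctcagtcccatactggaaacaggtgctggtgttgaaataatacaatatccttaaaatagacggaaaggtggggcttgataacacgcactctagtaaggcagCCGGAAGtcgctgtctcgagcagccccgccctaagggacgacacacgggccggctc

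For most members the 4 wells differed little. The SD over the 4 arrays had a median of 0.153 log2 units, quartiles of 0.0988 and 0.226 and a maximum of 1.06, and was at least 0.5 for 100 of the 10239 probes. It fell with the level, with medians of 0.25 in the dimmest decile of members and 0.104 in the brightest. With the background left in the signal, the medians were 0.0681 and 0.102, so the greater spread of dim members was present only after background correction. Middle-range genes with the smallest spread included Inpp5k, a phosphatase, with 9.88, 9.89, 9.86 and 9.88, and Mto1, a mitochondrial tRNA modifying protein, with 10.07, 10.11, 10.09 and 10.12.

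Array 4 differed from the other 3. For each pair of arrays the log2 differences over members had an SD of 0.226, 0.201 and 0.213 among arrays 1, 2 and 3, and of 0.369, 0.291 and 0.365 for the pairs of array 4 with arrays 1, 2 and 3. Array 4 had the highest of the 4 values in 38.7% of members and the lowest in 34.5%. It was the dimmest array and the only one on which 648 probes missed detection, against 68, 122 and 62 for arrays 1, 2 and 3. Among members, 25 lay at least 1 log2 unit above the mean of the other arrays on array 4 and 36 at least 1 below. On array 1 there were 3 above and 7 below, on array 2 there were 0 and 0, and on array 3 there were 1 and 0. Without array 4 the median SD was 0.113.

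**Figure D4:**
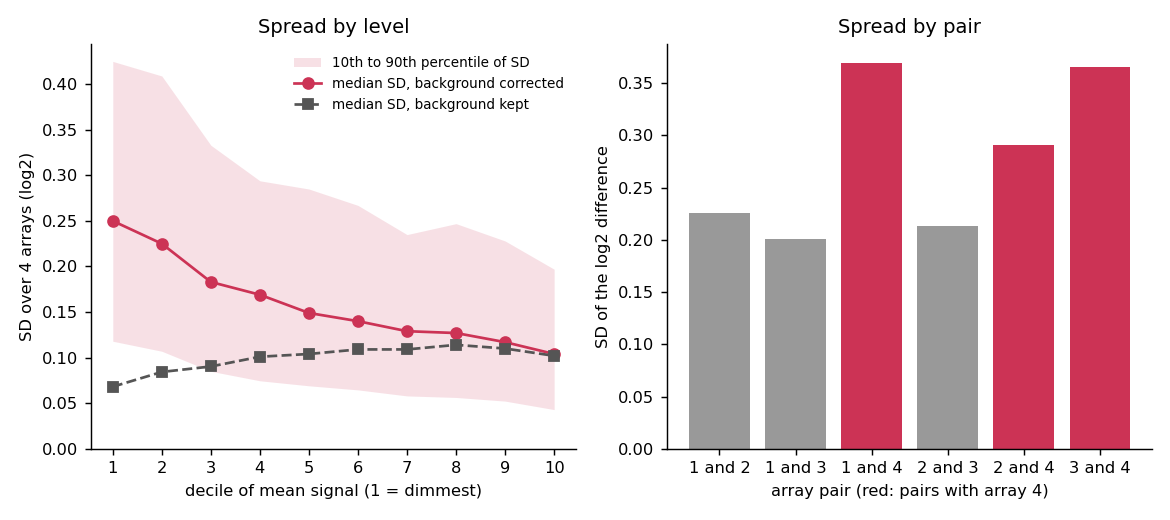
Left, median SD over the 4 rat IAPP arrays (vertical axis, log2) by decile of mean signal, with the background corrected (circles; shading from the 10th to the 90th percentile) and kept (squares). Right, SD of the log2 difference over 10239 member probes for each pair of arrays; the 3 pairs with array 4 (0.369, 0.291 and 0.365) are above the other 3 pairs.

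Several of the members with the largest SDs were low on array 4, and the classes of the low members were not counted. Lin7c, a scaffold protein of cell junctions, had the largest SD of all member genes with 8.48, 8.67, 8.29 and 6.38. Slc39a1, a zinc importer, had 8.51, 8.31, 8.17 and 6.65, and Rtn1, a reticulon, had 8.06, 7.97, 8.15 and 6.64. Cap1, a regulator of actin, was the brightest gene in this set with 12.4, 11.98, 12.32 and 10.76. In each of these 4 genes arrays 1 to 3 lay together and array 4 below them.

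Members high on array 4 included genes of contractile and matrix-making cells, and most of these were also lowest on array 1. Timp1, an inhibitor of matrix proteases, had 7.83, 8.68, 8.58 and 9.78, and its second probe had 7.49, 8.33, 8.32 and 9.41. Actg2, smooth muscle gamma actin, had 6.29, 6.93, 6.91 and 8.14. Ccn2, connective tissue growth factor, had 8.88, 9.84, 9.73 and 10.59, and Serpinf1, a secreted serpin, had 7.82, 8.42, 8.18 and 9.43. Col5a1, a fibrillar collagen gene, had 6.21, 6.31, 6.55 and 7.99. In these 5 genes array 1 was lowest, arrays 2 and 3 lay between and array 4 was highest. The same order was seen in genes looked up after these values were known: Acta2, smooth muscle alpha actin, with 11.28, 11.59, 11.46 and 12.15, Bgn, biglycan, with 8.39, 9.29, 9.1 and 10.06, and Igfbp7 with 8.62, 8.94, 9.03 and 9.88. All 4 probes of Acta2 were highest on array 4 and lowest on array 1.

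Of the 13 measured fibroblast and stroma markers, 1 was a member, Sparc, with 6.24, 6.35, 6.29 and 7.31, at the 1.81st percentile. Without array 1 it stood at 13.9, since another of its probes then met the rule. That probe had 6.03, 7.49, 7.13 and 8.22, also lowest on array 1 and highest on array 4. Of the others 9 were undetected on all 4 arrays, among them the defining genes Col1a1, Col1a2, Dcn, Lum and Pdgfra. Cxcl12 was detected on 3 arrays, and Col3a1 and Fbln1 on 1 each. The normalised signals of the whole list summed to 588.4, 593.5, 583.6 and 796.5 units. The sum was thus higher on array 4. Sums of some other lists were also highest on array 4. They were 933.3, 1008, 1038 and 1255 units for B cell genes and 485.6, 519.7, 450.3 and 604.9 for NK cell genes. Muscle genes, themselves of contractile cells, had 439.4, 428.5, 441.6 and 543.1. A sum is set mostly by its brightest genes: Blnk of the B cell list, through its brighter probe, and Prf1 of the NK cell list were both highest on array 4. Sums of other lists were not highest there: T cell genes had 550.3, 577.6, 518.3 and 543.3, and neutrophil genes 4757, 4921, 4773 and 4196. Members of the dimmest decile had a median deviation of 0.15 log2 units on array 4, against -0.04, -0.01 and -0.09 on arrays 1, 2 and 3. The part of stromal cells in the values above was not tested.

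**Figure D5:**
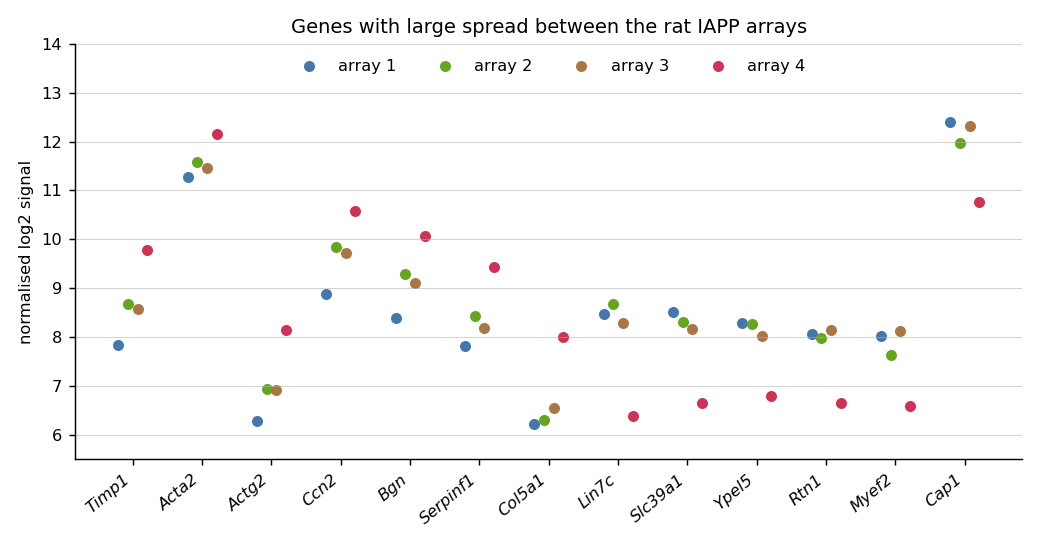
Normalised log2 signal (vertical axis) of 13 genes (horizontal axis) on the 4 rat IAPP arrays, 1 point per array. From Timp1 to Col5a1 array 4 is highest, and from Lin7c to Cap1 it is lowest; Acta2 and Bgn were added after values were seen.

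Other signs of a difference between array 4 and the rest were seen in actin and histone probes. Actb had 5 probes. The brightest had 15.88, 15.91, 16.05 and 15.98. The next brightest had 14.51, 14.63, 14.62 and 14.86, and another had 13.6, 13.52, 13.64 and 14.22, both highest on array 4. A pair of dim probes at background on arrays 1 to 3 was detected on array 4. These had 5.79, 5.82, 5.34 and 8.41 for 1 probe and 5.49, 5.51, 5.67 and 8.21 for the other. Their excess on array 4 over the mean of the other arrays, 2.75 and 2.65 log2 units, was the largest among the 15458 probes that were not members. The probes of Gapdh showed no such step, with 15.42, 15.35, 15.31 and 15.38 for the dimmer of 2. Both were bright on all arrays, unlike the dim Actb pair, so they could not show a step from background. The 36 member histone genes had a median deviation from the other arrays of 0.33 on array 4 and of -0.28 on array 1, against 0.02 and -0.01 for all member genes. Histones were not alone in this. The medians on arrays 4 and 1 were 0.44 and -0.42 for member collagens and 0.5 and -0.29 for member olfactory receptors. Cholesterol synthesis genes went the other way, with -0.14 and 0.16. Whether RNA quality differed between the wells was not tested.

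A second probe of the same gene bore on whether a deviation of array 4 belonged to the gene. Of 1888 genes with at least 2 member probes, the brightest probe deviated by at least 0.5 log2 units on array 4 in 140. The second probe deviated in the same direction in 114 of these and by at least 0.5 in 31. On array 1 the counts were 26, 19 and 4, on array 2 they were 1, 0 and 0, and on array 3 they were 19, 17 and 1. Nectin2, a cell adhesion protein looked up after its values were seen, had probes that disagreed, with 8.33, 7.95, 8.36 and 6.74 for 1, 6.61, 6.83, 6.48 and 7.38 for another and 8.82, 8.84, 8.99 and 8.84 for the brightest.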

How the data were processed

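RNA of 4 wells given rat IAPP was hybridised to Illumina bead arrays in 1 colour, alongside 4 wells given human IAPP. The authors deposited raw intensity values per probe on a linear scale, neither background-subtracted nor normalised, with a detection p-value beside each, per the file headers. A second deposited table of rescaled intensity values served as an alternative. The sources used here give neither the scanner, the slide nor the bead summary.

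The 4 rat IAPP arrays were corrected and quantile-normalised together with limma 3.58.1 in R 4.3.3 (normexp with an offset of 16, the negative control level being estimated through detection p-values) and log2 transformed. The same steps were tested on simulated data. Platform annotation gave 1 symbol for 23978 probes and several for 0 and left 1719 unlisted, with 23962 matched by gene number to RefSeq (GRCm38.p6). The array table names no build. Classes, motifs and figures were made with Python 3.11.15. No groups were compared and no p-value was computed, since the members were chosen by the values described. Dixon's ratio was used only to mark arrays that stood apart.

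Named genes were the 30 brightest, the 2 highest members and the lowest of each list, all members among markers of other cell types, the 5 genes on each side of the rule, the 12 largest SDs and the 6 smallest in the middle range, the 6 at the centre, and a fixed set. Other list genes in the text lie outside that rule. Members and lists were chosen with earlier results of these data known. Array number limits the precision.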

Additional observations from a re-analysis of the deposited data

Results flagged for a closer look

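For 68 genes given with 4 values, the gap between the highest or lowest array and the nearest other array was set against the whole range, and 9 exceeded Dixon's 95% critical value. Chance alone flags about 1 in 20 groups of 4, and over all 7071 member genes 400, or 5.66%, exceeded it. Some of the 68, Lin7c and Rtn1 among them, were named for their large SD, so the count of 9 is a description. The outlying array was array 4 in 247 of these 400 genes, and array 1, 2 or 3 in 71, 37 and 45. Array 4 was the outlying one in Lin7c at 0.834, Rtn1 at 0.88, Sparc at 0.895, Csf3r at 0.852, Fcgr1 at 0.915 and Mt1 at 0.884. It was above the other arrays in Sparc and Mt1 and below them in Lin7c, Rtn1, Csf3r and Fcgr1. Array 1 was the low one in Nfatc1 at 0.902. Array 3 was the one apart in Itm2b at 1.0, where the raw signals were at least 60000 units, and in Nectin2 at 0.87, through its brightest probe. No explanation was tested for these values.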

How the results depend on the processing

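The count of 10239 members became 9659 at a detection p under 0.01, 11139 when 3 arrays sufficed and 13485 when 1 did, and 10301 to 10887 when 1 array was left out. Undetected probes numbered 12212, 13897 at a detection p under 0.01, and 12470 to 12761 when 1 array was left out. The first 100 genes were the same 100 with no background correction, an offset of 50, median scaling, cyclic loess, all 8 arrays normalised together or the authors' rescaled values, and 97 to 100 were shared when 1 array was left out. The middle range shared 1275 to 1378 of its 1414 genes in those cases. Among the first 100, lysosomal genes numbered 7 under each of these settings, ribosomal genes 25 to 27 and macrophage markers 9 to 10, but 24 and 8 when a gene was given the mean of its detected probes. The median SD of 0.153 was 0.0974 with no background correction, 0.0923 with the authors' rescaled values, which keep the background, 0.38 with median scaling, and 0.113 to 0.164 when 1 array was left out. Its size thus depended on the processing. The share of promoters with a CpG ratio of at least 0.6 was 75.6% in the top quintile against 64.6% in the first 100, and 69.0% in the bottom quintile against 65.0% in the lowest 10%. Leaving out array 4 moved the percentile of 133 of 400 named genes by more than its spread between arrays. Of 41 class medians 33 moved by more than that spread with the mean over detected probes, 22 without array 4 and 20 at a detection p under 0.01. The largest shifts were 74.7 to 66.6 and 74.7 to 62.3 for activation-induced factors in the first pair of settings, and 69.6 to 81.0 for chaperones in the last. Signal near background limits the dim members, and the upper end of the scale limits the brightest. No paired analysis was possible because no groups were compared.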

Other observations

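Further classes were spread over the whole range. Class II antigen presentation genes had 6 of 12 members, from Cd74 at the 80.5th percentile to H2-Eb1 at the 19.7th, and the other 6 were detected on 1 to 3 arrays. Among lipid genes, Apoe lay at the 98.4th percentile, Lipa, the lysosomal acid lipase, at the 95.5th and Lpl at the 90.8th, while Fabp4 and Cpt1a were undetected. Immediate early genes had 11 of 18 members, with Ier3 at the 95.8th percentile and Fos at the 87.3rd, while Nr4a1, Egr3 and Fosb were undetected. Chaperones had 18 of 22 members, with Hspa8 at the 99.6th percentile, while the endoplasmic reticulum chaperone Hspa5 stood at the 6.9th and the stress-induced Hspa1a at the 3.41st.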
